A study of Arabidopsis thaliana with 4 samples.

Results

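ECS1 (locus AT1G31580) and ZW9 (locus AT1G58270) were among the nuclear genes with the largest difference between OsRR6ox and wild type Arabidopsis thaliana seedlings, and their values on each array are described here. They are 2 genes of the 13513 probe sets that the platform annotation assigns to a single gene, and each is read by 1 probe set. No probe set shared with another gene lists either of them. Both were chosen by their measured difference between OsRR6ox and wild type on these same arrays, so the size of that difference is a description, with no test of it reported. Transcript levels came from Affymetrix ATH1 arrays, on which short probes report the amount of labelled RNA, given as 1 log2 value per probe set. OsRR6ox seedlings carry a transgene for over-expression of the rice type-A response regulator OsRR6 in the accession col-0, and the wild type seedlings were of the same accession. All were 10 days old, grown on 1/2MS medium under long days and harvested whole without further treatment. There were 2 arrays of OsRR6ox and 2 of wild type, each labelled as a biological replicate. The design text speaks of a single overexpression line, and the sources used here name neither its promoter nor the number of insertions nor an empty-vector control. Where nothing says that replicates were grown apart, the spread between them may be technical.

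ECS1 encodes a protein of the plant cell wall, the carbohydrate and protein layer outside the plasma membrane, and was described in work on the bacterial pathogen Xanthomonas campestris in the Columbia accession. ZW9 encodes a protein with the MATH domain, a fold also called TRAF-like, which binds other proteins. Arabidopsis MATH proteins include adaptors of ubiquitin ligases and proteins that act in the turnover of immune receptors. Type-A response regulators are receiver-domain proteins that dampen cytokinin signalling, and neither ECS1 nor ZW9 is a textbook member of that pathway.

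ECS1 was bright on both OsRR6ox arrays and dim on both wild type arrays. It read 11.83 and 11.60 in OsRR6ox, against 5.38 and 4.91 in wild type (log2). The means were 11.72 ± 0.17 in OsRR6ox and 5.14 ± 0.33 in wild type (SD, n = 2 each), a difference of 6.57 on the log2 scale or 95.1-fold. Both OsRR6ox arrays lay above both wild type arrays, as for 18.1% of all probe sets, and ECS1 was chosen by this contrast. Set against each other array by array, the difference was lowest between OsRR6ox replicate 2 and wild type replicate 1, at 6.22 or 74.5-fold. It was highest between OsRR6ox replicate 1 and wild type replicate 2, at 6.92 or 121-fold. In a mixed sample such as a whole seedling, more cells that express a gene and more RNA per cell cannot be told apart.

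ZW9 was likewise high on both OsRR6ox arrays, but its wild type arrays differed from each other. It read 9.85 and 9.83 in OsRR6ox, against 6.59 and 4.96 in wild type (log2). The means were 9.84 ± 0.01 in OsRR6ox and 5.78 ± 1.16 in wild type (SD, n = 2 each), a difference of 4.06 or 16.7-fold. Both OsRR6ox arrays again lay above both wild type arrays, as for 18.1% of all probe sets, and ZW9 too was chosen by this contrast. The size of the difference depended on the wild type array. Against wild type replicate 1 the OsRR6ox arrays stood 3.25 and 3.23 higher, which is 9.54-fold and 9.40-fold. Against wild type replicate 2 they stood 4.89 and 4.87 higher, which is 29.7-fold and 29.2-fold. Both OsRR6ox arrays thus gave almost the same fold against a given wild type array.

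**Figure D1:**
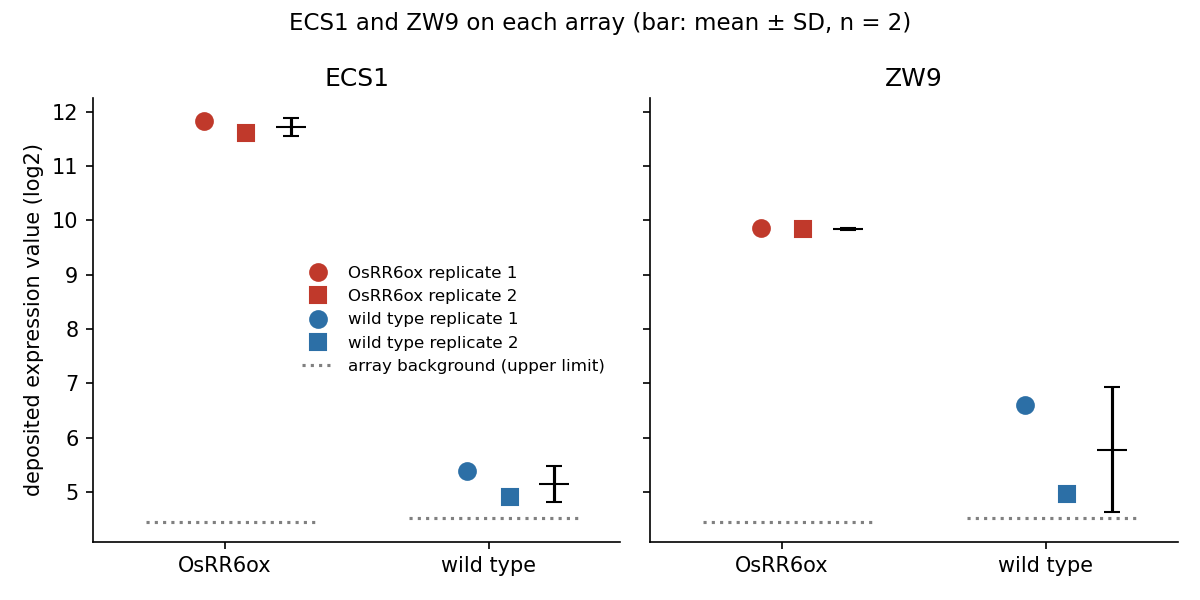
Deposited log2 values of ECS1 and ZW9 on each array, OsRR6ox left of wild type, with circles for replicate 1, squares for replicate 2, a bar for the mean ± SD (n = 2) and a dotted line at the upper limit of array background. Both OsRR6ox arrays lie above both wild type arrays for each gene, and the wild type arrays of ZW9 (6.59 and 4.96) are farther apart than those of ECS1 (5.38 and 4.91).

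The dimmest 25% of probe sets of an array were counted as its background, with upper limits of 4.45 and 4.41 on the OsRR6ox arrays and 4.49 and 4.52 on the wild type arrays. No array had either gene at background. ECS1 lay 0.88 and 0.40 above the limit on wild type replicates 1 and 2. ZW9 lay 2.10 above it on wild type replicate 1 and 0.44 on replicate 2. Both wild type readings of ECS1, and that of ZW9 on replicate 2, were thus within 1 log2 unit of background, whereas every OsRR6ox reading lay at least 5.40 above it.

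Among all 22746 probe sets tested, ECS1 had the 3rd largest difference in favour of OsRR6ox and ZW9 the 10th. Of the probe sets with a single gene they stood at places 2 and 6. Over the single pairs of arrays, the place of ECS1 was 3 in 3 of the pairs and 5 between OsRR6ox replicate 2 and wild type replicate 1. That of ZW9 was 29 and 31 against wild type replicate 1, and 6 and 7 against wild type replicate 2. Of the 15 probe sets with the largest differences, 8 had both wild type arrays at background and 5, ECS1 and ZW9 among them, had neither there. Those places follow from the contrast by which both genes were chosen, and they are given to show scale. As background, both OsRR6ox arrays lay above both wild type arrays for 18.1% of all probe sets.

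**Figure D2:**
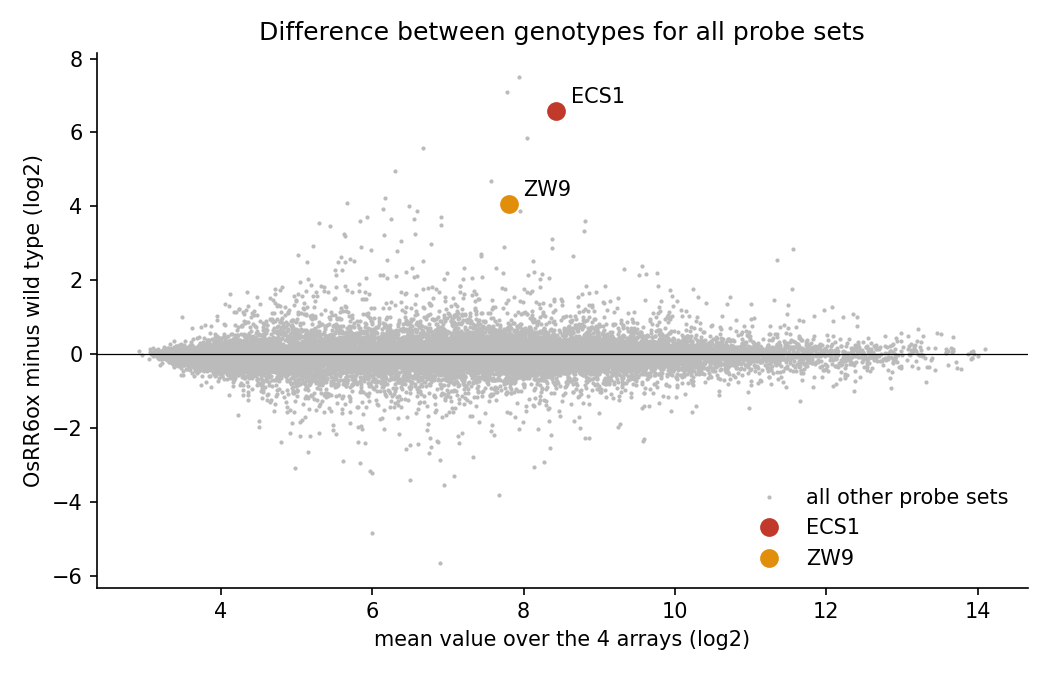
OsRR6ox minus wild type (log2) for each of the 22746 probe sets, against the mean over the 4 arrays (log2), with ECS1 and ZW9 marked. ECS1, at 6.57, and ZW9, at 4.06, stand in the sparse upper part of the cloud, well above most probe sets of the same mean level.

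The gap between replicates of a genotype played no part in choosing these genes. In OsRR6ox, replicate 1 minus replicate 2 was 0.24 for ECS1 and 0.02 for ZW9. The median absolute gap of all probe sets in that genotype was 0.15, and 31.8% of probe sets had a gap at least as wide as that of ECS1 and 92.7% at least as wide as that of ZW9. ZW9 was therefore more alike between the OsRR6ox arrays than most probe sets. In wild type the gap was 0.47 for ECS1 and 1.64 for ZW9, against a median of 0.18. Of all probe sets 13.1% had a wild type gap at least as wide as that of ECS1, but only 0.264%, or 60 of 22746, one at least as wide as that of ZW9. With a single pair of arrays per genotype, these shares rank the gaps and do not test them. The wild type arrays also stood apart in the 25S ribosomal RNA control of the array, which read 6.45 and 7.41 on OsRR6ox replicates 1 and 2, against 7.41 and 9.94 on wild type replicates 1 and 2. It was thus highest on wild type replicate 2, the array on which ZW9 was lowest, and its part in the ZW9 values was not tested.

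Few probe sets at the level of ZW9 had a wild type gap like its own. Of 2296 probe sets with a wild type mean within 0.5 of that of ZW9, ZW9 included, 15 (0.653%) had a gap as wide. Among the 15 largest differences in favour of OsRR6ox, the next widest wild type gap was 0.68. Of these 15, 8 had both wild type arrays at background, where a wide gap could hardly show. ZW9 was higher in wild type replicate 1, as were 33 other probe sets with a gap at least as wide, while 26 were higher in replicate 2. Over all probe sets, the gaps of the 2 genotypes correlated at 0.259. Of those 33 probe sets, 30 were also higher in OsRR6ox replicate 1 than in OsRR6ox replicate 2, and the median OsRR6ox gap of all 33 was 0.71. ZW9, at 0.02 between its OsRR6ox arrays, was unlike most of them there, and 2 of the 33 had an OsRR6ox gap as narrow. Their median difference between OsRR6ox and wild type was -0.18, against 4.06 for ZW9, which was chosen by its difference. In 5 of the 33 both OsRR6ox arrays lay above both wild type arrays, as for 18.1% of all probe sets. A wide wild type gap leaves less room for such a separation.

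**Figure D3:**
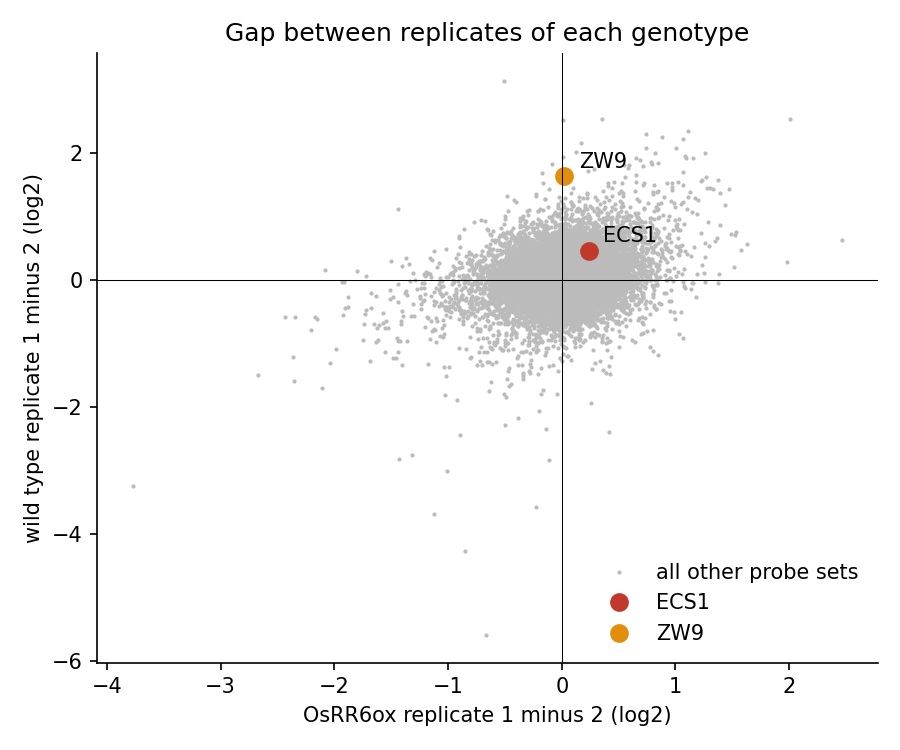
Replicate 1 minus replicate 2 in OsRR6ox (horizontal, log2) and in wild type (vertical, log2) for all 22746 probe sets, with ECS1 and ZW9 marked. ECS1 (0.24 in OsRR6ox, 0.47 in wild type) lies within the main cloud, and ZW9 (0.02 in OsRR6ox, 1.64 in wild type) lies above it on the wild type axis alone.

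The likeness of other genes to each profile was measured as the Euclidean distance between log2 values over the 4 arrays, each gene centred on its own mean, where 0 means the same profile. The genes nearest to ECS1 were AT2G25510 at a distance of 0.60, AT1G23960 at 1.17, AT5G45500 at 2.38, AT3G43740 at 2.56 and ZW9 at 2.65. AT2G25510 read 11.24 and 11.41 in OsRR6ox, against 4.40 and 4.06 in wild type, a difference of 7.09. AT1G23960 read 9.30 and 9.62 in OsRR6ox, against 3.79 and 3.99 in wild type, a difference of 5.57. Both were at array background in wild type, where ECS1 lay 0.88 and 0.40 above the limit, so their differences may be understated. AT5G45500 and AT3G43740, also at background in wild type, were 18.7-fold and 17.1-fold higher in OsRR6ox, which may likewise be understated. These 4 genes are known here by locus code alone. Only probe sets with a single gene were ranked, and 4 probe sets without one lay nearer to ECS1 than ZW9 did.

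Of the genes nearest to ZW9, AT5G45500 was the closest at 0.95, followed by CYP71B34, a cytochrome P450 gene, at 1.16, AT2G43535 at 1.21, AT2G14460 at 1.25 and AT1G76960 at 1.27. CYP71B34 read 7.50 and 6.84 in OsRR6ox, against 3.91 and 3.52 in wild type, a difference of 3.45. AT2G43535 read 10.23 and 9.53 in OsRR6ox, against 6.07 and 5.97 in wild type, a difference of 3.86, and was the single one of the 5 above background in wild type. AT2G14460 and AT1G76960 differed by 3.54 and 3.60, and for the 4 genes at background the differences may be understated. None of the 5 had a wild type gap near that of ZW9, their values running from 0.02 to 0.39. For the 4 at background, a wide gap could hardly show. ECS1 was place 62 in likeness to ZW9, while ZW9 was place 5 in likeness to ECS1, among 13512 probe sets with a single gene each. Another 5 probe sets, without a single gene, lay nearer to ZW9 than AT1G76960 did. The measure rests on 4 arrays and is dominated by the size of the genotype difference.

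**Figure D4:**
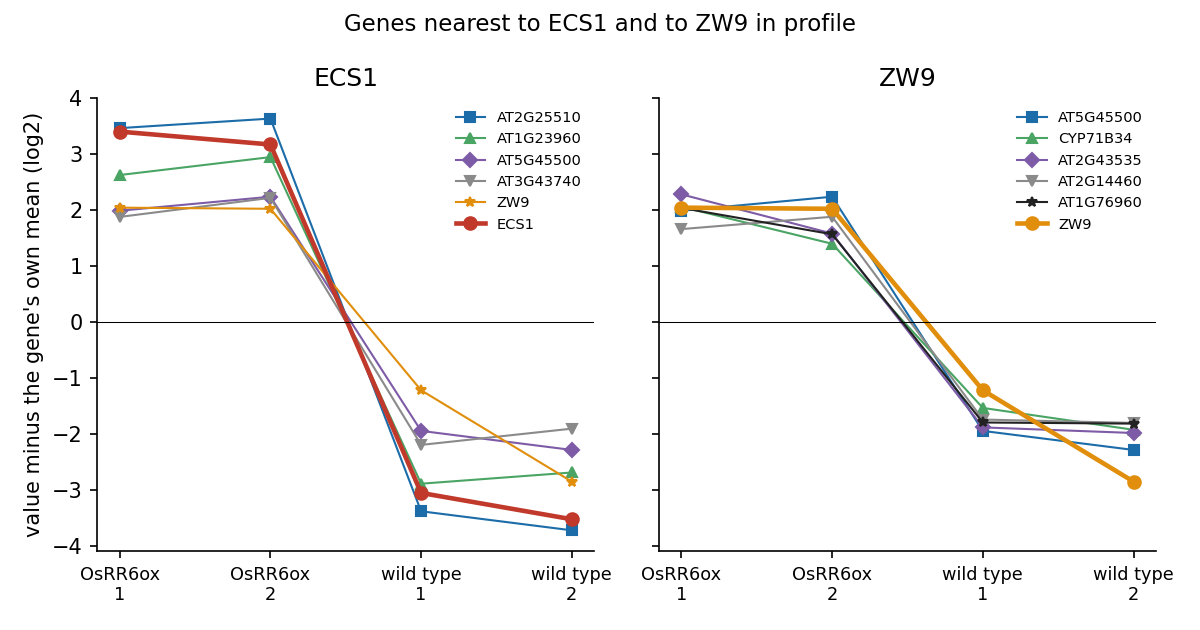
Log2 values minus each gene's own mean on the OsRR6ox and wild type arrays, for ECS1 (left) and ZW9 (right). Shown with each are the 5 genes nearest in profile among probe sets with a single gene. AT2G25510 runs closest to ECS1 (distance 0.60), and no companion of ZW9 shows its drop of 1.64 between wild type replicates 1 and 2. All companions of ZW9 but AT2G43535 were at background on both wild type arrays, where a wide gap could hardly show.

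The genes measured beside ECS1 on the chromosome differed by -1.20 to 0.16, against 6.57 for ECS1. ECS1 and ZW9 both lie on chromosome 1, with 2863 genes of the reference annotation between them. Of the 10 genes on each side of ECS1 in the order of the TAIR10.1 annotation, 13 of 20 were measured under a single gene name. Of these 0 passed in either direction (limma, Benjamini-Hochberg adjusted p under 0.05), where 1.3% of all probe sets passed, 0.813% higher and 0.488% lower in OsRR6ox. Of the 13 genes 1 had an unadjusted p under 0.05, as did 15% of all probe sets. The median difference was -0.12, against -0.04 over all probe sets. At array background on all arrays were 7 of the 13, so their differences carry little information. The nearest measured gene on the one side, AT1G31550, read 6.92 and 6.33 in OsRR6ox, against 7.95 and 7.70 in wild type. Its groups did not overlap, as for 46.1% of all probe sets, and its difference of -1.20 ± 0.23 (SE, n = 2 each) did not pass (limma adjusted p = 0.101, unadjusted p = 0.00304). On the other side AT1G31620 differed by -0.16, and the MADS-box genes AGL86 and AGL92 by -0.10 and -0.02. These 3 genes were among the 7 at background. The genes directly next to ECS1 were not measured under a single gene name.

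**Figure D5:**
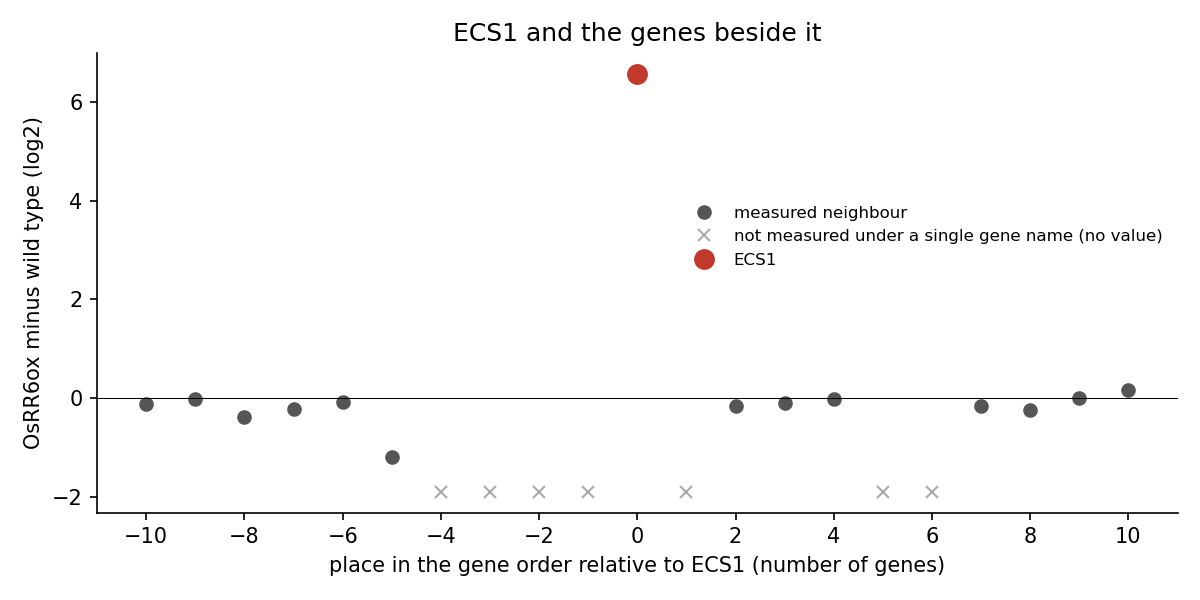
OsRR6ox minus wild type (log2) for ECS1 and the 10 genes on each side, by place in the gene order, with crosses at the bottom for genes without a value here. ECS1 stands at 6.57, while the 13 measured neighbours lie between -1.20 and 0.16.

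Beside ZW9, 1 of the 20 nearest genes was measured under a single gene name. AT1G58230, 9 genes away, read 7.87 and 7.77 in OsRR6ox, against 8.25 and 7.80 in wild type. It differed by -0.21 ± 0.19 (SE, n = 2 each) and did not pass (limma adjusted p = 0.673). The surroundings of ZW9 were thus hardly covered by named probe sets, and unnamed ones were not searched for these genes.

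Of 11 named MATH-domain genes 3 were measured, and 0 passed in either direction or had an unadjusted p under 0.05 (limma), with a median difference of -0.03. Over all probe sets 1.3% passed and 15% had such a p, so a count of 0 among 3 genes says little. AT1G04300 and AT5G43560, whose products act with each other in the turnover of immune receptors, differed by 0.22 ± 0.19 and -0.14 ± 0.14 (SE, n = 2 each). The first read 7.66 and 8.11 in OsRR6ox, against 7.65 and 7.69 in wild type. AT5G43560 read 8.68 and 8.58 in OsRR6ox, against 8.88 and 8.66 in wild type. The groups overlapped for both genes. BPM3, which encodes a MATH protein of ubiquitin ligases, differed by -0.03.

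For ECS1 the lists of cell wall proteins and of bacterial defence were set beside it. Of 23 structural cell wall protein genes, extensins, proline-rich, glycine-rich and arabinogalactan proteins, 1 was measured. It was HRGP1, a hydroxyproline-rich extensin gene, which read 7.14 and 8.54 in OsRR6ox, against 8.06 and 7.83 in wild type. Its OsRR6ox arrays lay on either side of the wild type arrays, and its difference of -0.10 ± 0.46 (SE, n = 2 each) did not pass (limma adjusted p = 0.955). Of 22 bacterial defence genes 4 were measured, and 0 passed or had an unadjusted p under 0.05 (limma), with a median difference of 0.00. The shares over all probe sets were 1.3% and 15%. WRKY53, a transcription factor of defence and senescence, read 8.00 and 7.51 in OsRR6ox, against 8.68 and 8.11 in wild type. Its groups did not overlap, as for 46.1% of all probe sets. Its difference of -0.64 ± 0.26 (SE, n = 2 each) did not pass (limma adjusted p = 0.35, unadjusted p = 0.0574). Of the 4 genes, 2 had a higher and 2 a lower mean in OsRR6ox. EFR, the receptor for bacterial elongation factor Tu, differed by 0.11. With so few members measured, a lack of calls does not show that defence or wall protein genes were unchanged.

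The arrays as a whole set the scale for these values. Array medians were 6.77 and 6.75 in OsRR6ox and 6.81 and 6.71 in wild type, and over probe sets Pearson's r was 0.992 for the OsRR6ox arrays, 0.989 for the wild type arrays and 0.976 to 0.980 for arrays of different genotype. Of 22746 probe sets 296 passed (1.3%), 185 higher and 111 lower in OsRR6ox. This count was 51 without OsRR6ox replicate 1, 45 without OsRR6ox replicate 2 and 465 without wild type replicate 2. The whole-seedling label was checked against organ markers. The green tissue gene RCA, Rubisco activase, read 13.41 and 13.68 in OsRR6ox, against 13.78 and 14.05 in wild type. The root gene PYK10 read 12.71 and 12.84 in OsRR6ox, against 12.96 and 13.00 in wild type. The flower genes AMS and SPL were at array background on all arrays, and 0 of 4 seed genes had a probe set of their own in the annotation.

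Among the organ markers measured, EXPA7 alone passed the threshold, where 1.3% of all probe sets passed. Of 6 root marker genes 3 were measured. The root hair expansin gene EXPA7 rose by 1.39 (limma adjusted p = 0.0392). EXPA18 differed by 1.11 (limma adjusted p = 0.103) and PYK10 by -0.21. Of 7 green tissue genes 3 were measured and 0 passed, RCA differing by -0.38, LHCB4.1 by 0.17 and LHCB4.2 by 1.20. The ubiquitin control of RNA integrity, read as its 3′ minus its 5′ probe set, gave 1.21 and 1.25 in OsRR6ox and 1.83 and 1.77 in wild type. The part of these differences in the values of ECS1 and ZW9 was not tested.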

How the data were processed

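Log2 values of 22810 probe sets on 4 arrays (2 OsRR6ox, 2 wild type) were deposited by the authors as a single table. Per the labels' protocols, RNA extracted with Trizol was labelled with biotin following the revised 3′ IVT procedure of Affymetrix. The submitters' processing notes name R 3.4.0, and the sources used here do not state how background was corrected or how probes were summarised and normalized. The 64 array controls were left out. Gene names came from the platform annotation, updated by gene identifier to the TAIR10.1 table, which 13436 of 13513 single-gene probe sets matched. A further 503 have several genes and 8730 are unnamed here. A gene is called measured where a probe set carries its name alone, and unnamed probe sets may read others. A gene with several probe sets is given by the brightest.

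The genotypes were compared in R 4.3.3 by the moderated test of limma 3.58.1 (two-sided, Benjamini-Hochberg over 22746 probe sets, threshold 0.05), tested on simulated data. ECS1 and ZW9 were in this fit, but as they were chosen by the same contrast, their p-values are not reported. The text names these genes, the 5 probe sets with a single gene nearest to each in profile, and from each list the members past the threshold or else those with the smallest p. Nearest measured neighbours were also named, and other names were chosen after their values were seen. Members and lists were chosen with earlier results of these data known. Detection calls were not used, and the number of arrays limits the precision. Sequence relatives and promoter motifs were planned but not analysed here, since no sequence table was used.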

Additional observations from a re-analysis of the deposited data

How the results depend on the processing

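ECS1 differed by 6.57 as deposited and by 7.10 after centring on the 42 spike-in controls, a setting chosen after seeing the data in which the median probe set differed by 0.49, against -0.04 as deposited. ZW9 differed by 4.59 after that centring, which adds the same amount to the difference of every probe set. As both genes were chosen for their difference, its sign under other settings is no sign of stability. With arrays left out in turn, ECS1 ranged from 6.34 to 6.80 and ZW9 from 3.24 (without wild type replicate 2) to 4.88 (without wild type replicate 1). ZW9 then held place 29 and place 7 by size, and ECS1 place 3 in each. The 296 calls over all probe sets became 492 after median centring, 3013 after spike-in centring, 64 at an adjusted p threshold of 0.01 and 105 with the replicate block, and 45 to 465 with an array left out. Rises made up 62.5% of calls as deposited, 95.0% after spike-in centring and 72.4% with the block. The labels do not say that replicate numbers pair the samples, and replicate deviations correlated at 0.259 across probe sets. The lists of MATH, cell wall, defence and neighbouring genes had 0 calls under each setting run for them, as deposited, quantile, median, spike-in, the replicate block and each array left out. The alternatives on sequence relatives were not run.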
